A study of Mus musculus with 8 samples.

Results

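The genes described here encode mitochondrial fatty acid oxidation and ketone body formation. They are 32 members given by symbol, and all 32 symbols matched 1 Ensembl ID each among the 56748 gene IDs of the count table. They were grouped by step into acyl-CoA activation (4 genes), the carnitine shuttle (5), the beta-oxidation spiral (14), electron transfer (3), ketone bodies (2) and control or neighbouring steps (4). The study sequenced liver RNA of mice on a high fat-high fructose diet, labelled MASLD (metabolic dysfunction-associated steatotic liver disease) at 16 weeks. The groups are 4 knockout libraries, from mice without the microRNA miR-93, and 4 libraries called wild-type, and both had the same diet. The labels do not say in which cells the microRNA was deleted, give neither sex nor age, and do not say whether each library came from its own mouse. The question was which transcripts differ in the knockout. The precursor gene Mir93 had 0 counts in all 8 libraries, so these counts do not check the genotype.

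In liver, long-chain fatty acids are first joined to coenzyme A, then carried into the mitochondrial matrix as carnitine esters. There each turn of the beta-oxidation spiral removes an acetyl unit, in the order dehydrogenation, hydration, second dehydrogenation and thiolysis, and passes electrons through a flavoprotein to the respiratory chain. In fasting much of the acetyl-CoA is turned into acetoacetate and beta-hydroxybutyrate, the ketone bodies that other tissues burn. Malonyl-CoA, the first product of fat synthesis, blocks the carnitine shuttle at its entry, and the nuclear receptor PPAR-alpha drives transcription of many of these genes.

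The deleted microRNA is shown with its seed, positions 2 to 8, in capitals, because a gene with a match to the seed could be bound by it directly. The mature sequence is from RefSeq (GRCm38.p6, chr5:138165574-138165596, minus strand).
mmu-miR-93-5p: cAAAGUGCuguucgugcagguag
Of the 32 members, 4 (12.5%) had a match to the 7-base seed in the longest 3′ UTR annotated in GENCODE M21, against 1744 of 11598 tested genes with a 3′ UTR (15.04%). Each of these 4 genes had 1 match. The sites follow on the transcript's strand with the match in capitals, for Acsl4 (GRCm38, chrX:142319306-142319312, minus strand), Hadhb (chr5:30168561-30168567, plus strand), Decr1 (chr4:15917721-15917727, minus strand) and Pdk4 (chr6:5484940-5484946, minus strand).
Acsl4: tattctttGCACTTTttcataat
Hadhb: ctagagctGCACTTTcgggtttg
Decr1: ataatcttGCACTTTtgagaacc
Pdk4: gaatcaaaGCACTTTatcgagct
The Pdk4 match is followed by an A, the base that lies opposite position 1 of the microRNA, and the other 3 are not. Among these 4 genes, given with their values below, Hadhb, Decr1 and Pdk4 rose in knockout and Acsl4 fell. Of all 32 members, with or without a match, 22 rose and 2 fell. Acsl3, the other gene that fell, had no match. Whether the microRNA binds any of these genes was not tested.

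The libraries held 5085860 to 10966019 counts. The mitochondrial genome took 8.08% to 15.03% of knockout counts and 25.4% to 77.8% of wild-type counts, the latter value in wild-type replicate 4, which held 1131446 counts outside it. Levels are in CPM, the usual depth-normalised read count, after TMM scaling, which assumes most genes do not change. In wild-type replicate 4 a count of 0 would allow up to 3 counts, or 1.69 CPM, against 0.219 to 0.455 CPM in the other 7 libraries. Hepatocyte markers were abundant in every library, with summed levels over 8 genes of 37802 to 43405 CPM in knockout and 45649 to 60006 CPM in wild type, and 1 rose and 3 fell. Of 9 Kupffer cell and 8 sinusoidal endothelial markers 5 of each rose and none fell, and 6 of 7 B cell markers fell, with summed levels of 11.7 to 75.1 CPM in knockout and 58.5 to 503 CPM in wild type. By the same test, named in the next paragraph (adjusted p under 0.05), 10.4% of all tested genes rose and 10.7% fell. Kupffer cell markers summed to 145 to 178 CPM in knockout and 46.4 to 202 CPM in wild type, and sinusoidal endothelial markers to 138 to 260.1 and 90.4 to 188 CPM. Of 7 stellate cell markers 2 fell (94.1 to 99.9 and 81.4 to 207 CPM), and of 5 cholangiocyte markers 2 were tested and 1 rose (31.4 to 33.0 and 10.1 to 20.3 CPM). The highest wild-type sums of the Kupffer cell, sinusoidal endothelial and stellate cell markers (202, 188 and 207 CPM) were all in wild-type replicate 4. For Kupffer cell and sinusoidal endothelial markers, only that library brought the wild-type range into overlap with knockout. Of 6 T and NK cell markers 4 were tested and 3 fell, with sums of 4.68 to 6.24 CPM in knockout and 8.66 to 15.2 CPM in wild type, which did not overlap. The 1 tested neutrophil marker of 5 did not pass (2.34 to 3.95 and 1.37 to 4.498 CPM), with Ly6g and Mpo at 0. Adipocyte and striated muscle markers summed to at most 1.69 CPM in any library, with Lep and Myh6 at 0. The part of these other cell types in the results below was not tested, and a change in the share of a cell type cannot be told apart from a change in RNA per cell in bulk liver.

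Of the 32 members 22 rose in knockout, 2 fell and 8 did not pass the test (edgeR quasi-likelihood, adjusted p under 0.05 over 13204 genes). Over all genes tested, 10.4% rose and 10.7% fell. The median log2 fold change of the members, knockout over wild type, was 1.06, against -0.0061 over all tested genes. For 26 members the levels of the groups did not overlap, which held for 30.3% of all tested genes. Below, ± after a log2 fold change is the standard error of the fit and ± after a level is the SD over 4 libraries. All 32 members passed the filter on low counts, and 31 would have passed it on the wild-type libraries alone. The exception was Pdk4.

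Wild-type replicate 4 was the lowest wild-type library for 25 of the 32 members, against 46.7% of all tested genes. Without it 26 members rose and 4 fell, while 17.8% of all genes tested rose and 17.5% fell. All 24 genes called with it were also called without it, and the median log2 fold change was 0.92. Knockout replicate 1, the knockout library with the highest mitochondrial share, was the lowest knockout library for 21 of the 32 members, against 31.8% of all tested genes. When the genes of the mitochondrial genome were left out before scaling, 22 members again rose and 2 fell, while 10% of all genes tested rose and 10.9% fell. TMM trims genes with extreme ratios, so this step could change little. It does not address the mitochondrial share itself. That share was higher in every wild-type library than in any knockout library, so it cannot be told apart from the genotype. Scaling by library size alone, which puts the median of all tested genes at 0.54, gave 11 members higher and 0 lower, with 4.25% of all genes higher and 0.939% lower. The calls that it ended were those of Acsl3, Acsl4, Cpt1a, Slc25a20, Cpt2, Acadl, Acadm, Hadh, Acaa2, Eci1, Acat1, Bdh1 and Aldh3a2, and the member median was then 1.55.

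**Figure D1:**
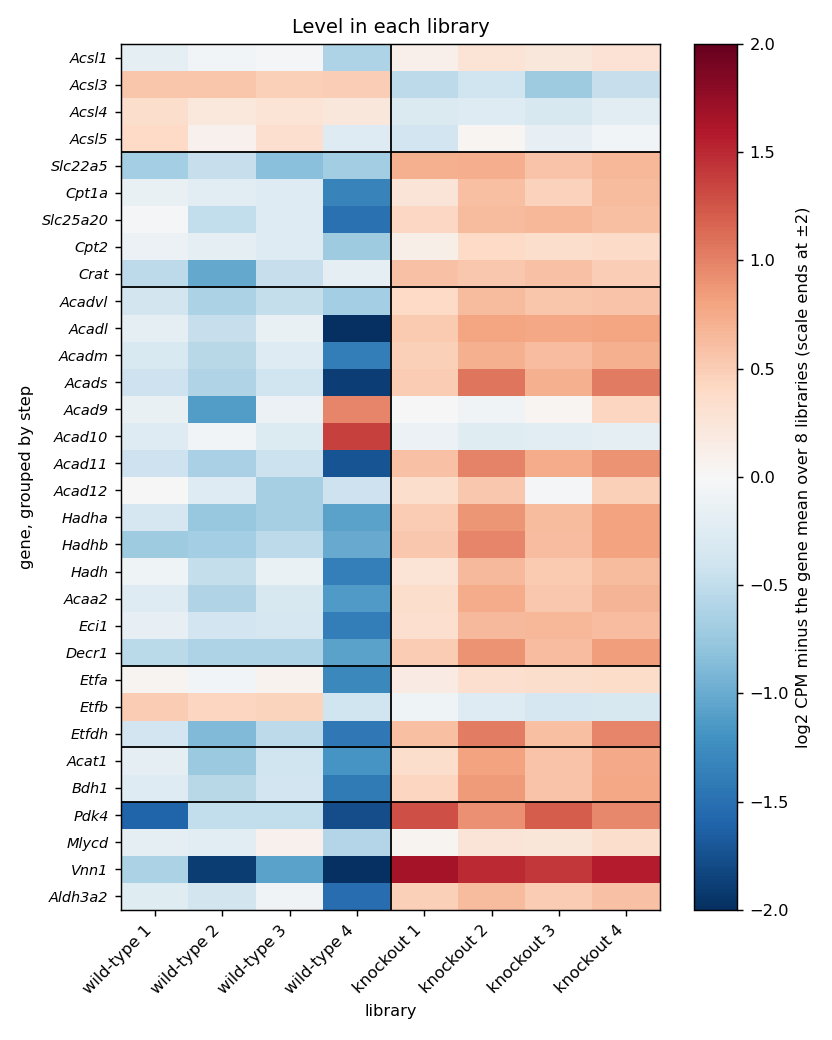
Level of each of the 32 genes (rows, grouped by step in the order of the text) in each library (columns), as log2 CPM minus the gene's mean over the 8 libraries, with red above and blue below that mean. Most rows are blue in the 4 wild-type columns and red in the 4 knockout columns, wild-type 4 is the darkest blue in many rows, and Acsl3 and Acsl4 run the other way.

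Activation held both genes that fell, and none of its 4 acyl-CoA synthetases rose. Acsl1, the main long-chain acyl-CoA synthetase of liver, stood at 494, 559, 543 and 565 CPM in the 4 knockout libraries and at 405, 446, 456 and 303 CPM in the wild-type libraries. The groups did not overlap, but the difference of 0.42 ± 0.15 on the log2 scale had an adjusted p of 0.0721 (95% interval 0.087 to 0.76) and was not called. Without wild-type replicate 4 it was 0.32 and passed (adjusted p = 0.00576).

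Acsl3, a synthetase of the endoplasmic reticulum and lipid droplets, had 13.4, 14.6, 11.8 and 14.0 CPM in knockout against 28.2, 28.2, 26.9 and 27.0 in wild type. Every knockout library was below every wild-type library, and wild-type replicate 4 lay with the other 3. Acsl3 fell by 1.04 ± 0.13 on the log2 scale (adjusted p = 0.000252). Acsl4, which prefers arachidonic acid and carries one of the seed matches shown above, had 19.7, 20.1, 19.3 and 20.7 CPM in knockout against 30.7, 27.8, 29.0 and 28.1 in wild type. It fell by 0.54 ± 0.11 (adjusted p = 0.00785), again with no overlap between the groups. Acsl5, a synthetase found on mitochondria and endoplasmic reticulum, ran from 81.4 to 109 CPM in knockout and from 88.3 to 139.9 CPM in wild type (log2 fold change -0.30 ± 0.17, adjusted p = 0.224). Without wild-type replicate 4 it fell by 0.40 (adjusted p = 0.00483). With library size scaling Acsl3 read -0.47, Acsl4 0.021 and Acsl5 0.20, all below the median of all genes under that scaling. Testing all detected genes with no filter also ended the call of Acsl4 (adjusted p = 0.0570).

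All 5 genes of the carnitine shuttle rose. The shuttle begins with Slc22a5, the carnitine transporter of the plasma membrane, at 52.2, 53.0, 47.6 and 50.6 CPM in knockout against 19.8, 23.1, 17.9 and 19.7 in wild type. The groups were far apart, and wild-type replicate 4 did not stand out. The log2 fold change of Slc22a5 was 1.33 ± 0.13 (adjusted p = 4.79e-05), and 1.33 ± 0.11 without that library (adjusted p = 2.33e-09). Of the 50-base stretches in the longest Slc22a5 transcript, 27.1% also occur in another gene, mainly its neighbour and paralog Slc22a21, so part of its count is uncertain.

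Cpt1a, the outer-membrane carnitine palmitoyltransferase that malonyl-CoA inhibits, had 306, 388, 352 and 395 CPM in knockout against 229, 221, 213 and 101 in wild type. The lowest knockout value lay above the highest wild-type value, and wild-type replicate 4 held less than any other library. Cpt1a rose by 0.91 ± 0.23 (adjusted p = 0.0180), or by 0.71 without wild-type replicate 4. Slc25a20, which exchanges acylcarnitine for carnitine across the inner membrane, had 99.2, 115, 118 and 113 CPM in knockout against 72.5, 52.9, 62.7 and 26.4 in wild type. It rose by 1.03 ± 0.24 (adjusted p = 0.0113), with no overlap between the groups. Cpt2, the inner-membrane transferase that returns the acyl group to coenzyme A, had the smallest rise of the step, 0.60 ± 0.15 (adjusted p = 0.0178), from 80.8 ± 13.8 CPM in wild type to 123 ± 10.4 CPM in knockout (SD, n = 4 per group). Crat, the acetyltransferase that handles short acyl groups, had 58.5, 56.8, 58.7 and 55.1 CPM in knockout against 27.2, 19.2, 28.4 and 34.3 in wild type. Crat rose by 1.10 ± 0.16 (adjusted p = 0.000916), and for this gene wild-type replicate 4 was the highest wild-type library. The call of Cpt1a was lost without knockout replicate 2 or 4 (adjusted p = 0.0590 and 0.0609), and that of Cpt2 without knockout replicate 2, 3 or 4 (0.0604, 0.0547 and 0.0607).

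**Figure D2:**
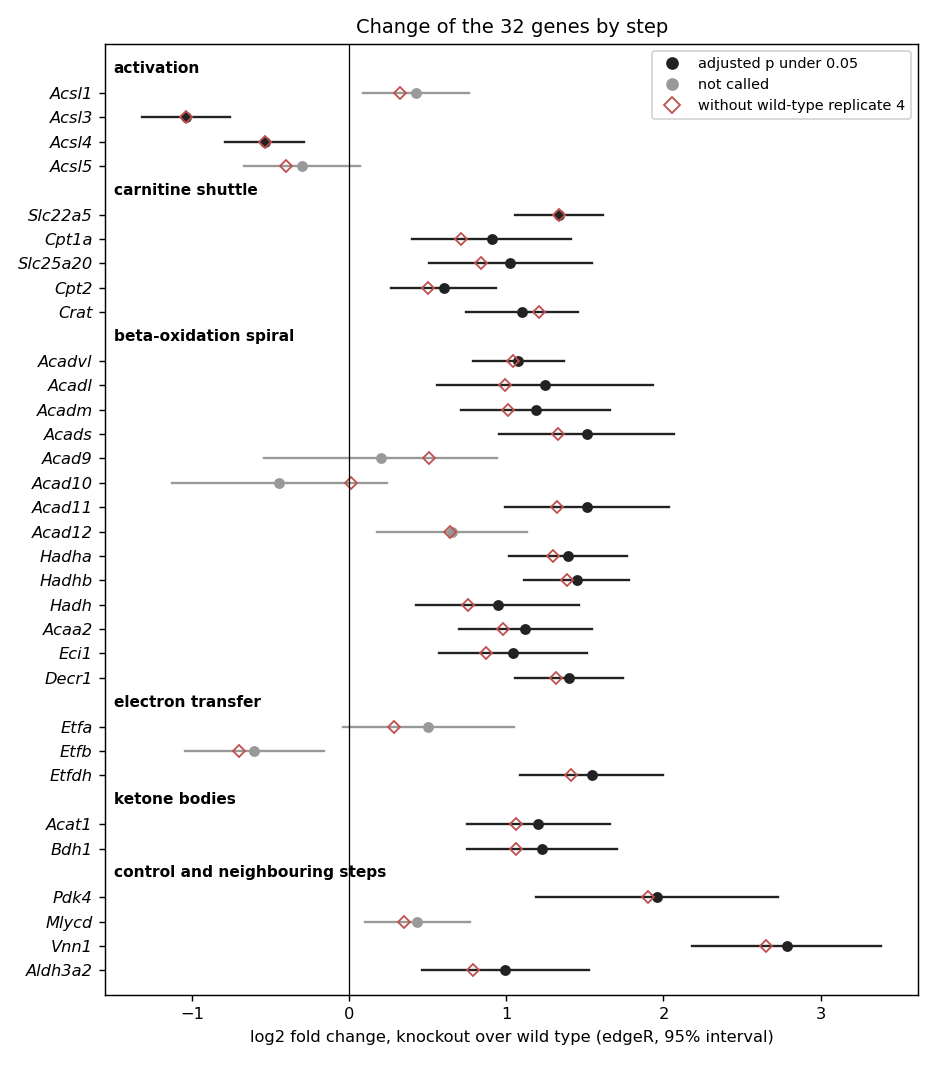
Log2 fold change of each gene, knockout over wild type, with its 95% interval (black where the adjusted p is under 0.05, grey otherwise), ordered by step, and the value without wild-type replicate 4 as an open diamond. The carnitine shuttle, ketone bodies and most of the spiral lie between 0.60 and 1.54, Vnn1 is the highest at 2.78 and Acsl3 the lowest at -1.04.

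In the beta-oxidation spiral 11 of 14 genes rose and none fell, with a median log2 fold change of 1.15. The first dehydrogenation is shared among enzymes that differ in the chain length they take. Acadvl, for very long chains, had 309, 364, 347 and 349 CPM in knockout against 182, 151, 169 and 147 in wild type, a rise of 1.08 ± 0.13 (adjusted p = 0.000276). Acadl, for long chains, had 210.5, 252, 251 and 253 CPM in knockout against 129, 107, 132 and 34.3 in wild type. It rose by 1.25 ± 0.31 (adjusted p = 0.0171), or by 0.99 without wild-type replicate 4, where it was lowest by far. Its call ended when knockout replicate 2, knockout replicate 4 or wild-type replicate 2 was left out (adjusted p = 0.0527, 0.0533 and 0.0532).

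Acadm, the medium-chain enzyme whose loss causes a well-known human fasting disorder, had 284, 335, 314 and 335 CPM in knockout against 165, 139.6, 171 and 78.2 in wild type. Its rise was 1.19 ± 0.22 (adjusted p = 0.00320). Acads, for short chains, had 73.7, 108, 84.7 and 107 CPM in knockout against 38.8, 34.1, 39.4 and 14.1 in wild type, and rose by 1.51 ± 0.25 (adjusted p = 0.00207). In all 4 of these dehydrogenases each knockout library was above each wild-type library.

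The 4 further members of the dehydrogenase family gave differing values. Acad11 rose by 1.51 ± 0.24 (adjusted p = 0.00142), from 64.1 ± 22.0 CPM to 186 ± 22.7 CPM (SD, n = 4 per group). Acad9, which also serves the assembly of respiratory complex I, ran from 6.23 to 8.83 CPM in knockout and from 3.02 to 12.9 CPM in wild type, with its highest value in wild-type replicate 4 (0.20 ± 0.34, adjusted p = 0.713). Acad10 had 22.2, 20.3, 20.7 and 21.3 CPM in knockout against 20.1, 23.2, 19.9 and 61.9 in wild type. Its log2 fold change of -0.44 ± 0.31 (adjusted p = 0.334) rested on wild-type replicate 4 and was 0.013 without it, and library size scaling gave 0.31. Acad12 had 8.64 ± 1.42 CPM in knockout against 5.41 ± 1.03 in wild type (0.65 ± 0.22, adjusted p = 0.0544), and passed without wild-type replicate 4 (0.64, adjusted p = 0.0195). Acad10 and Acad12 are close copies: 18.6% of the 50-base stretches of the longest Acad10 transcript and 20.7% of those of Acad12 also occur in another gene, mostly in each other, so their counts are uncertain.

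The enzymes of the later reactions also rose. Hadha and Hadhb encode the subunits of the trifunctional protein, which carries out the last 3 reactions on long chains. Hadha had 193, 250.3, 211 and 237 CPM in knockout against 107, 80.4, 85.4 and 64.7 in wild type (1.39 ± 0.17, adjusted p = 0.000261). Hadhb had 88.8, 120.3, 93.5 and 107 CPM in knockout against 37.4, 38.2, 42.5 and 30.4 in wild type (1.45 ± 0.15, adjusted p = 8.92e-05). Every knockout library held more of either subunit than any wild-type library.

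For shorter chains the work passes to Hadh, the 3-hydroxyacyl-CoA dehydrogenase, and Acaa2, the matrix thiolase that releases acetyl-CoA. Acaa2 had 554, 725, 626 and 688 CPM in knockout against 362, 284, 346 and 197 in wild type, and rose by 1.12 ± 0.19 (adjusted p = 0.00246). Hadh rose by 0.94 ± 0.24 (adjusted p = 0.0169), from 94.8 ± 32.9 CPM to 185 ± 21.1 CPM (SD, n = 4 per group), and its call ended when knockout replicate 2, knockout replicate 4 or wild-type replicate 2 was left out (adjusted p = 0.0565, 0.0567 and 0.0586). Eci1 and Decr1, the isomerase and reductase that prepare unsaturated chains for the spiral, rose by 1.04 ± 0.21 (adjusted p = 0.00645) and 1.40 ± 0.16 (adjusted p = 0.000130). Decr1 had 107, 140.4, 116 and 135 CPM in knockout against 52.2, 49.2, 49.5 and 36.0 in wild type.

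Of the 3 electron transfer genes 1 rose. Etfdh, the inner-membrane oxidoreductase that hands electrons from the flavoprotein to ubiquinone, had 96.4, 129, 96.3 and 125 CPM in knockout against 48.4, 34.4, 43.8 and 23.6 in wild type, and rose by 1.54 ± 0.21 (adjusted p = 0.000521). Etfa, the alpha subunit of the flavoprotein, had 242, 272, 277 and 278 CPM in knockout against 224, 209, 228 and 88.3 in wild type. The groups did not overlap, yet the gap between knockout and the other 3 wild-type libraries was small, and the log2 fold change was 0.50 ± 0.25 (adjusted p = 0.170). Without wild-type replicate 4 it was 0.29 and passed (adjusted p = 0.0150).

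Etfb, the beta subunit, had 7.002, 6.23, 5.92 and 5.94 CPM in knockout against 10.6, 10.03, 10.2 and 5.62 in wild type. It was thus lower in all knockout libraries than in wild-type replicates 1 to 3, and lowest in wild-type replicate 4, where it rested on 10 counts. Its log2 fold change was -0.60 ± 0.20 (adjusted p = 0.0542), and without wild-type replicate 4 it fell by 0.70 (adjusted p = 0.00266). Under library size scaling it read -0.088. In GENCODE M21, 53.0% of the Etfb exon bases also belong to Gm45233, a gene on the same strand that had 0 counts in all 8 libraries. The sources used here do not state how reads in shared exons were counted, so the level of Etfb is uncertain.

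Both ketone body genes among the members rose. Acat1, the mitochondrial thiolase that joins 2 acetyl-CoA into acetoacetyl-CoA, had 228, 312, 266 and 303 CPM in knockout against 157, 107, 136 and 78.7 in wild type (1.20 ± 0.21, adjusted p = 0.00242). Bdh1, which reduces acetoacetate to beta-hydroxybutyrate, had 125, 168, 139 and 159 CPM in knockout against 78.3, 63.2, 71.9 and 34.9 in wild type (1.23 ± 0.22, adjusted p = 0.00279). For both genes the groups did not overlap and knockout replicate 1 was the lowest knockout library.

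Of the 4 genes of control or neighbouring steps 3 rose. Vnn1, a pantetheinase that recycles a part of coenzyme A, had the largest rise among the members, 2.78 ± 0.27 (adjusted p = 5.66e-05). Its levels were 73.4, 65.0, 61.3 and 68.6 CPM in knockout against 14.9, 6.18, 10.9 and 3.94 in wild type, so the wild-type libraries spread more widely in relative terms. Pdk4, the kinase that shuts off pyruvate dehydrogenase when fat is burned, was scarce, with 58, 43, 61 and 49 counts in knockout and 5, 10, 9 and 1 counts in wild type. In CPM these were 4.72, 3.62, 4.46 and 3.73 against 0.632, 1.37, 1.37 and 0.562, the last of them under the limit of 1.69 CPM for that library. Pdk4 rose by 1.96 ± 0.35 (adjusted p = 0.00291). It would not have passed the filter on low counts with the wild-type libraries alone. With such wild-type counts it could be tested only because it was higher in knockout.

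Aldh3a2, which oxidises fatty aldehydes to fatty acids, had 174, 194, 177 and 188 CPM in knockout against 105, 96.9, 119 and 43.3 in wild type. It rose by 0.99 ± 0.24 (adjusted p = 0.0151), and the call was lost without knockout replicate 2 (adjusted p = 0.0504). Mlycd, the decarboxylase that removes malonyl-CoA, had 70.3, 81.2, 80.4 and 86.8 CPM in knockout against 59.5, 57.7, 71.6 and 44.98 in wild type. The groups touched, since wild-type replicate 3 lay above knockout replicate 1, and the log2 fold change was 0.43 ± 0.15 (adjusted p = 0.0650). Without wild-type replicate 4 or without wild-type replicate 3 it passed (0.35, adjusted p = 0.0116, and 0.55, adjusted p = 0.0437).

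Because genes differ in length, levels were compared between members as CPM per kb of annotated exon. In wild type Acaa2 led with 196 ± 49.3 CPM per kb, then came Etfa with 102 ± 36.3, Acadvl with 60.3 ± 6.10 and Acadl with 50.1 ± 22.7 (SD, n = 4). The spreads of Etfa and Acadvl overlap, as do those of Acadvl and Acadl and of many genes lower in this order. In knockout Acaa2 stood at 428 ± 49.4, Etfa at 146 ± 9.19, Acadvl at 127 ± 8.66 and Acadl at 121 ± 10.4 CPM per kb (SD, n = 4). At the other end, Acad9 (0.853 ± 0.513), Acad12 (0.830 ± 0.158) and Pdk4 (0.280 ± 0.127) were the lowest in wild type, and Acad9 (0.863 ± 0.145) the lowest in knockout. Vnn1 moved from 3.72 ± 2.03 to 27.8 ± 2.13 CPM per kb. The lengths come from GENCODE M21 and count all annotated exons, so a gene with long unused exons reads low.

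**Figure D3:**
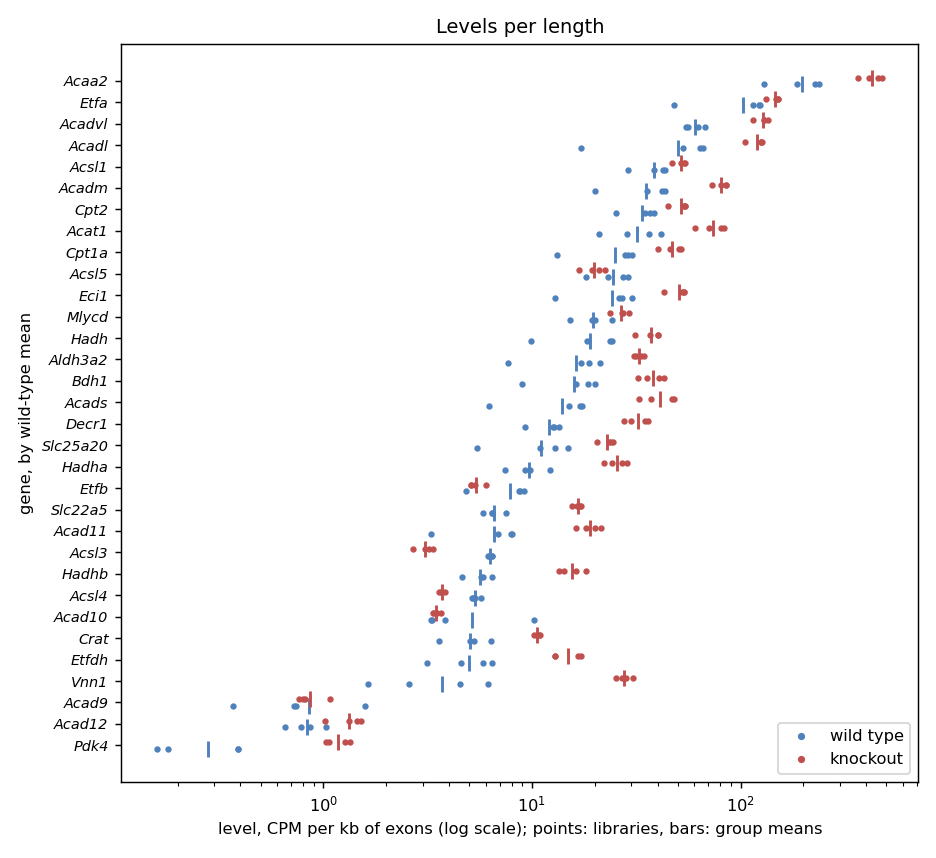
Level of each gene in CPM per kb of exons on a log axis, genes ordered by their wild-type mean, with a point per library and a bar for each group mean (blue wild type, red knockout). Acaa2 is highest in both groups and Pdk4 lowest in wild type, and the red means of Acsl3, Acsl4, Acsl5, Acad10 and Etfb lie to the left of the blue ones.

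A ratio of 2 genes in the same library does not depend on how libraries are scaled. Of 9 such ratios, 6 separated the groups completely (two-sided exact permutation p = 0.0286, the smallest that 70 assignments allow, adjusted p = 0.0429 over the 9). The 6 include Etfb to Etfdh, which was picked after the Etfb values were seen, so its p is not a test. The adjustment over the 9 counts that pair too. Acsl1 counts were 6.07, 5.13, 5.72 and 5.52 times the Acsl5 counts in knockout and 2.89, 3.95, 3.41 and 3.43 times in wild type, a difference of 0.72 in the mean log2 ratio. The ratio of Cpt1a to Cpt2, the outer to the inner transferase, was 2.83, 2.98, 2.77 and 3.07 in knockout and 2.50, 2.52, 2.56 and 1.66 in wild type, so 3 wild-type libraries lay close below knockout. Cpt2 to Slc25a20 was 1.09, 1.13, 1.07 and 1.14 in knockout and 1.26, 1.65, 1.33 and 2.28 in wild type.

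Within the acyl-CoA dehydrogenases, Acadm counts were 3.86, 3.09, 3.71 and 3.14 times those of Acads in knockout and 4.25, 4.09, 4.32 and 5.47 times in wild type, so the short-chain gene held a larger share in every knockout library. The ratio of Etfa to Etfb was 34.4, 43.5, 46.5 and 46.5 in knockout and 21.0, 20.7, 22.3 and 15 in wild type. Etfb to Etfdh, a pair picked after the Etfb values were seen, ran from 0.0478 to 0.0730 in knockout and from 0.220 to 0.293 in wild type. Both ratios rest on the uncertain Etfb count.

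The other 3 ratios overlapped. The trifunctional subunits Hadha and Hadhb stood at 2.17, 2.08, 2.26 and 2.22 in knockout and 2.86, 2.10, 2.01 and 2.12 in wild type (exact permutation p = 0.943, n = 4 per group). Acadm to Acadl differed by -0.18 in the mean log2 ratio (exact permutation p = 0.743), with wild-type replicate 4 alone at 2.27 and the other 7 libraries between 1.25 and 1.35. Acat1 to Bdh1 ran from 1.82 to 1.92 in knockout and from 1.69 to 2.25 in wild type (exact permutation p = 0.657). Without any 1 knockout library or without wild-type replicate 4, 35 assignments remain and none of the 9 ratios passed. Leaving out a library cannot undo a complete separation, so the pairs that separated the groups still did. The smallest possible p is 0.0286 with 35 assignments, so the exact test has little room below the threshold. The lost calls therefore do not show that the ratios depend on 1 library.

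**Figure D4:**
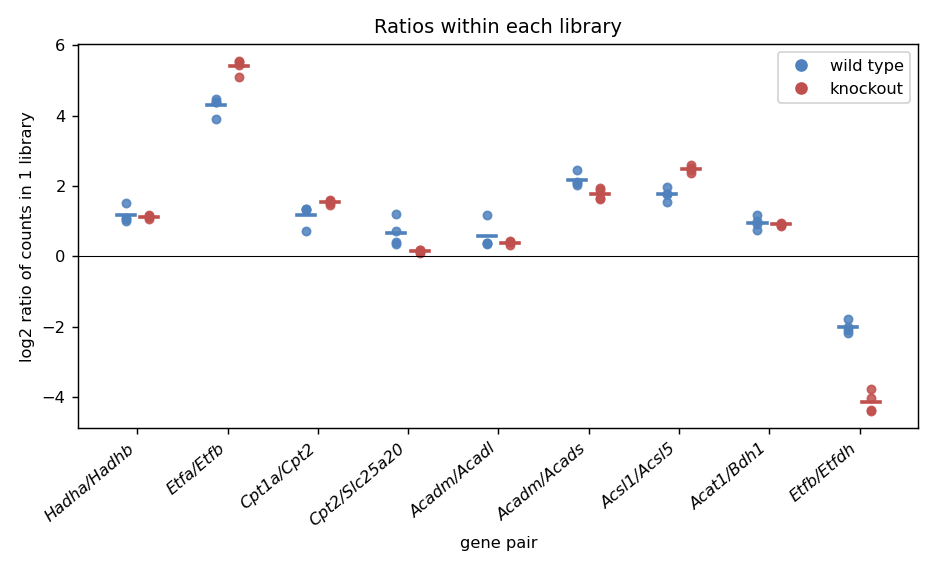
Log2 ratio of the counts of 2 genes in 1 library for 9 gene pairs, with a point per library and a bar for each group mean (blue wild type, red knockout). The groups are separate for 6 pairs, most widely for Etfb/Etfdh and Etfa/Etfb, and overlap for Hadha/Hadhb, Acadm/Acadl and Acat1/Bdh1. Etfb/Etfdh was picked after the Etfb values were seen.

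Several members share exons with a neighbour, some of which also had more counts in knockout. The counts given here are raw, and knockout libraries were deeper (9187279 to 10966019 counts, against 5085860 to 7451026 in wild type). More counts in knockout thus need not mean a higher level. In GENCODE M21, 42.9% of the Acadvl exon bases also belong to Dvl2, a Wnt signalling gene on the opposite strand. Dvl2 had 3489, 3768, 4408 and 4397 counts in knockout and 1348, 1143, 1069 and 277 in wild type, between 0.871 and 1.06 times the Acadvl counts of the same library. Acad11 shares 4.89% of its exon bases with the chemokine receptor gene Ackr4 on the opposite strand, which had 549, 906, 764 and 907 counts in knockout and 180, 150, 155 and 10 in wild type. Acsl5 shares 8.31% with Zdhhc6 on the opposite strand (610, 761, 753 and 900 counts in knockout, and 353, 289, 322 and 80 in wild type). Crat shares 7.63% of its exon bases with its antisense gene Gm16323, which had 17, 9, 13 and 15 counts in knockout and 0, 0, 1 and 0 in wild type. Etfdh shares 3.70% with 4930579G24Rik on the opposite strand (8, 8, 5 and 6 counts in knockout, and 2, 0, 1 and 0 in wild type), and Bdh1 13.7% with the antisense gene Gm15743 (10, 3, 3 and 2 counts in knockout, and 2, 1, 1 and 0 in wild type). The labels do not say whether strand was used in counting, so reads of such pairs cannot be told apart.

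Promoters from RefSeq (GRCm38.p6, 250 bases before to 50 bases after the start) were found for 26 of the 32 members, in 28 windows. They were searched on both strands for 2 copies of AGGNCA with 1 base between, the direct repeat that PPAR-alpha and its partner RXR bind. It was in 0 of the 28 windows, and in 125 of 32851 windows of the whole table (0.381%). The search covers only these letters in this window, and many known elements of this kind lie outside it.

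Other genes of the pathway moved in both directions: of 44 listed, 40 were tested, 11 rose and 10 fell. Over all genes tested, 10.4% rose and 10.7% fell, which is the share to set beside the counts of each list below. In the list of ketone body genes, Slc16a7, a carrier of pyruvate and ketone bodies, rose (0.70 ± 0.13, adjusted p = 0.00369), and the cytosolic dehydrogenase Bdh2 fell by 1.02 ± 0.17 (adjusted p = 0.00185).

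Malonyl-CoA is made by 2 acetyl-CoA carboxylases, and both fell. Acacb, the form at the mitochondrial surface next to Cpt1a, had 13.03, 11.5, 13.9 and 12.9 CPM in knockout against 70.4, 108, 80.6 and 122 in wild type (-2.88 ± 0.19, adjusted p = 2.86e-06). Acaca, the cytosolic form, had 18.6, 21.5, 16.7 and 20.9 CPM in knockout against 46.5, 51.8, 46.4 and 43.3 in wild type (-1.28 ± 0.13, adjusted p = 7.50e-05). Beside them, the member Cpt1a, which malonyl-CoA inhibits, rose, and Mlycd, which degrades malonyl-CoA, did not pass.

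Among 10 genes of the malonyl-CoA brake and of transcription 2 rose and 4 fell. Ppara, the gene of PPAR-alpha, rose by 1.08 ± 0.13 (adjusted p = 0.000244), with 33.0 ± 1.67 CPM in knockout against 15.5 ± 1.71 in wild type (SD, n = 4 per group), and its partner Rxra by 0.68 ± 0.13 (adjusted p = 0.00376). Beside the carboxylases, Esrra (-1.05 ± 0.28, adjusted p = 0.0240) and Ppargc1b (-1.60 ± 0.48, adjusted p = 0.0371) fell. Both were highest in wild-type replicate 4 (178 and 14.1 CPM). Ppargc1a did not pass (-0.082 ± 0.19, adjusted p = 0.797). Under library size scaling 1 gene of this list was called lower, Acacb, so the calls of Esrra and Ppargc1b ended. Of 8 genes of the pyruvate gate 6 were tested, none rose and 2 fell: the kinase Pdk1 (-0.90 ± 0.12, adjusted p = 0.000471) and the dehydrogenase subunit Pdhb (-0.73 ± 0.13, adjusted p = 0.00255), while the member Pdk4 rose. Of 15 further enzymes 13 were tested, 5 rose and 2 fell. The isomerase Eci2 (1.51 ± 0.13, adjusted p = 2.17e-05), the hydratase Echs1 (0.85 ± 0.22, adjusted p = 0.0201) and Gcdh (0.43 ± 0.12, adjusted p = 0.0310) were among those that rose. Nudt7, a CoA diphosphatase of peroxisomes, fell by 1.67 ± 0.13 (adjusted p = 8.47e-06). The call of Echs1 ended when wild-type replicate 2, knockout replicate 2 or knockout replicate 4 was left out (adjusted p = 0.0729, 0.0684 and 0.0643). That of Gcdh ended without any 1 of the knockout libraries, without wild-type replicate 2 or 3 and without a filter on low counts (adjusted p = 0.0554 to 0.0901). In the propionyl-CoA route, which takes odd-chain ends, Pccb rose by 1.297 ± 0.20 (adjusted p = 0.00125) and the other 3 genes did not pass. Scaling by library size alone ended the calls of Slc16a7, Bdh2, Acaca, Rxra, Pdk1, Pdhb, Echs1, Gcdh and Nudt7 and reversed none of these 9. As given above, the calls of Esrra and Ppargc1b ended as well.

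**Figure D5:**
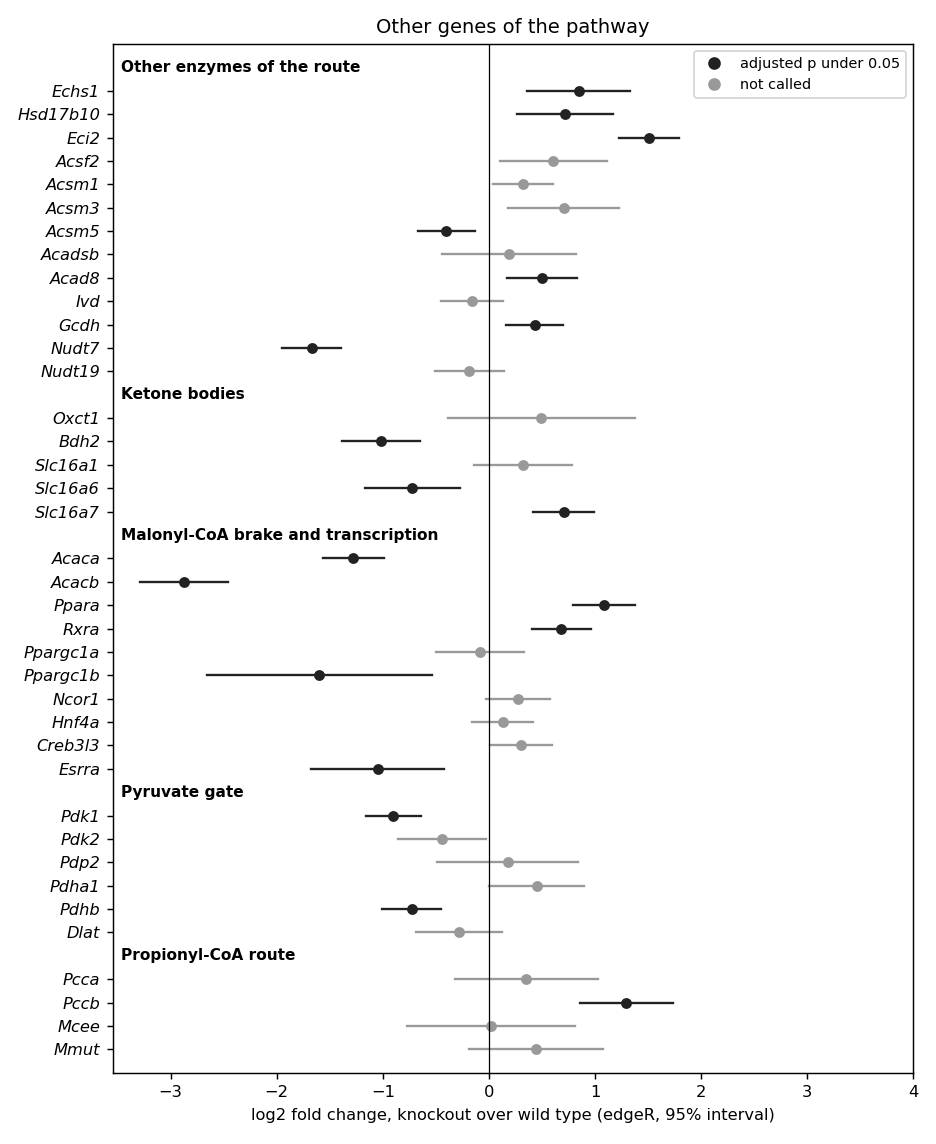
Log2 fold change, knockout over wild type, with its 95% interval for tested genes of the pathway outside the 32, by list (black where the adjusted p is under 0.05, grey otherwise). Of the genes drawn, Eci2 at 1.51 is the highest and Acacb at -2.88 the lowest.

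The acetyl-CoA that the spiral yields can also enter the tricarboxylic acid cycle, and the same chemistry runs in peroxisomes. Of 18 cycle genes 6 rose, 1 fell and 11 did not pass, with a median log2 fold change of 0.32. Of all genes tested 10.4% rose and 10.7% fell. Suclg1 (1.40 ± 0.22), Idh2 (1.02 ± 0.14) and Sdhd (0.93 ± 0.19) rose and Fh1 fell by 0.73 ± 0.13, with neither of the last called under library size scaling. Of 14 genes of peroxisomal beta-oxidation 8 rose and none fell, with a median of 0.70, among them Acaa1a (1.15 ± 0.12), Crot (1.42 ± 0.21), Acox2 (1.06 ± 0.17) and Ehhadh (1.82 ± 0.29). The median of the 32 members, 1.06, was above both, and the difference between the lists was not tested.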

How the data were processed

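The deposited file holds raw counts per Ensembl gene ID, not normalized, which the authors made with cutadapt 4.2, STAR 2.7.10a and the mm39 build, per the submitters' processing notes. The counting tool, strand setting and treatment of shared reads are not given in the sources used here. Symbols, exon lengths and 3′ UTRs came from GENCODE M21 (GRCm38), which named 52073 of 56748 IDs, and Mmut was found through its RefSeq synonym. Unnamed IDs took 0.332% to 1.57% of a library.

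Knockout was tested against wild type in R 4.3.3 with edgeR 4.0.16 (robust quasi-likelihood, TMM, filterByExpr on the groups, two-sided, Benjamini-Hochberg over 13204 tested genes, threshold 0.05), all 8 libraries and no covariate. Ratios used counts plus 0.5. The steps were tested on simulated data, where 55 of 100 planted log2 changes of 1 and 90 of 100 planted log2 changes of 2 were called. Of the 157 calls made there, 12 were false. A change near 1 that did not pass may thus have been missed. Alternatives used DESeq2 1.42.0, limma 3.58.1, other scalings and filters, a replicate block and each library left out. Figures used matplotlib 3.10.9.

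The members and lists were chosen with earlier results of these data known. All members are named. Of other lists, genes with the smallest p among those called are named, with Ppara, Acaca and Acacb always. Esrra, Ppargc1b and Ppargc1a were named after their values were seen. A few of these genes are neither reported nor drawn here, though counted in the list totals. Since the labels do not name animals, the p-values cover the spread between libraries, which may be technical, and limits for counts of 0 cover counting error only.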

Additional observations from a re-analysis of the deposited data

Results flagged for a closer look

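In a group of 4 libraries, a library was singled out when its gap to the nearest other made up a larger share of the group's range than Dixon's critical value at 95%, which chance does in about 1 of 20 groups. Of 64 groups of members, 8 met this. Wild-type replicate 4 was the stray library in 4 of them, lowest for Cpt1a (101 CPM), Etfa (88.3 CPM) and Etfb (5.62 CPM) and highest for Acad10 (61.9 CPM). Knockout replicate 1 was the lowest in the other 4, for Cpt2 (108 CPM), Acadl (210.5 CPM), Eci1 (91.3 CPM) and Etfa (242 CPM).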

How the results depend on the processing

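Leaving out 1 library gave 17 to 26 members higher and 2 to 4 lower, with 1489 to 4853 genes called in all, 7 to 16 and 6 to 13 other pathway genes higher and lower, 9 to 17 and 1 to 3 genes of both comparison lists, and 0 to 6 ratios past the threshold. Scaling by library size alone gave 685 called genes, 561 of them higher and 124 lower (1369 and 1408 with TMM), with 11 members higher and 0 lower, a member median of 1.55 against 0.54 over all genes, 5 and 1 pathway genes, and 6 and 0 comparison genes. Limma-voom with quality weights called 4950 genes (18.2% of those tested higher and 19.2% lower), 4 members lower and 4 comparison genes lower. Without a filter on low counts 1 member was lower, with 4.43% of all genes lower. A fit with the replicate block called 1267 genes (Acsl4, Cpt1a, Cpt2 and Hadh not among them), 4.87% of those tested higher and 4.73% lower. It gave 19 members higher and 1 lower, 7 and 6 pathway genes, and 8 comparison genes higher. Same-numbered libraries did not deviate together (correlations -0.256, -0.0394, -0.0713 and -0.126), and those of unlike number gave -0.171 to 0.244. Deviations from a mean of 4 libraries depend on each other, so these values cannot exclude a paired design. Signs turned with library size alone for Acad10 (0.31), Acsl4 (0.021) and Acsl5 (0.20). Leaving out 1 library gave -0.61 to 0.013 for Acad10 and -0.073 to 0.51 for Acad9, the sign turning without wild-type replicate 4 and 2. It gave log2 ratios of -0.26 to 0.019 for Acadm/Acadl and -0.12 to 0.015 for Acat1/Bdh1, turning without wild-type replicate 4, and -0.10 to 0.071 for Hadha/Hadhb, turning without wild-type replicate 1. The cause was not tested. Size factors, upper quartile and TMM without mitochondrial genes changed no member's call. The depth of wild-type replicate 4 limits scarce genes such as Pdk4 and Etfb.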
